A study of Mustela putorius furo with 9 samples.

Results

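The genes described here are 10 feedback inhibitors of MAP kinase signalling: the phosphatase genes DUSP1, DUSP4, DUSP5, DUSP6 and DUSP10, the Sprouty genes SPRY2 and SPRY4, the Sprouty-related genes SPRED1 and SPRED2, and the G-protein regulator gene RGS2. They were chosen by name, as the rows of the deposited expression table whose gene identifier carries one of these symbols. All 10 were present among the 28494 genes of the table. Of the 10, 8 reached at least 1 FPKM in at least 3 libraries and were tested, as were 11840 genes in all. SPRY4 and DUSP10 stayed below that level and are described by their values.

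RNA was sequenced from NBL-7 cells, which the labels describe as ferret lung epithelial cells, in a study of airborne particulate matter. The same name is used for a line from mink lung, and which species these cells come from was not tested. The 9 libraries form 3 groups of 3: Ep1, labelled untreated, Ep2, labelled as given 250 µg/mL of particulate matter, and PBS1, labelled as given 500 µg/mL. All were grown in DMEM with serum, and the labels give no exposure time. PBS usually names a vehicle buffer, so for this last group the title conflicts with the treatment label. For that reason each of the 3 pairs of groups was compared, and no dose response is read from their order. Nothing in the labels says that a group's libraries are separate cultures, so p-values cover only the spread between libraries and this spread may be technical.

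Growth factor receptors activate RAS, which passes a signal through RAF and MEK kinases to the ERK family of MAP kinases; JNK and p38 are MAP kinases of parallel stress pathways. Many of the genes that ERK switches on encode proteins that dampen the pathway again, and their mRNA levels are widely used as a readout of ERK activity in epithelial cells. DUSP proteins remove phosphate from the MAP kinases themselves. Sprouty and SPRED proteins act further up, at the level of receptors and RAS, and RGS2 shuts off G proteins that signal through phospholipase C. These roles are known from human and mouse.

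The fragment total that scales FPKM, recovered from the deposited values, was 12469851 to 13533482 a library. Reads that did not enter this total cannot be recovered from FPKM. Library Ep1_1 correlated across genes at 0.992, 0.993 and 0.994 with the columns PBS1, PBS2 and PBS3, but at 0.991 and 0.990 with Ep1_2 and Ep1_3. Library Ep2_1 correlated at 0.9916 with Ep1_3, at 0.9915 with Ep2_2 and at 0.9923 with Ep2_3. Of 6 epithelial markers, only KRT8 (131 to 200 FPKM) and KRT19 (156 to 276 FPKM) reached 1 FPKM. EPCAM was listed at 0 in every library, and CDH1 and KRT18 did not exceed 0.135 and 0.0458 FPKM. The summed epithelial markers ran from 321 to 419 FPKM in Ep1, from 297 to 315 FPKM in Ep2 and from 412 to 459 FPKM in PBS1. Of 5 lung epithelial markers 2 reached 1 FPKM, NKX2-1 at 8.05 to 15.5 FPKM and SCGB1A1 at up to 1.31 FPKM, while SFTPC was at 0; their sum was 12.9 to 16.2 FPKM in Ep1, 8.11 to 11.4 FPKM in Ep2 and 14.8 to 15.6 FPKM in PBS1. The fibroblast and leukocyte lists (2 of 5 and 1 of 4 reaching 1 FPKM) summed to at most 3.71 and 2.77 FPKM. Of 4 endothelial markers only TEK reached 1 FPKM, at 12.0 to 17.6 FPKM and on average highest in PBS1, with CDH5 at 0. The part of these markers in the results was not tested. In bulk RNA, fewer cells of a type and less RNA per cell cannot be told apart.

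The members spanned a wide range of levels in FPKM, a unit corrected for gene length. DUSP1 was the most abundant at 61.5 FPKM on average over the 9 libraries, followed by RGS2 (22.7 FPKM), SPRED1 (14.6 FPKM), DUSP5 (14.0 FPKM), SPRED2 (6.56 FPKM) and SPRY2 (4.21 FPKM). DUSP6 and DUSP4 lay close together at 2.50 and 2.32 FPKM, and their ranges over the libraries overlapped. SPRY4 (0.303 FPKM) and DUSP10 (0.0696 FPKM) had at most 30 and 5 fragments in a library. RGS2 and SPRED1 overlapped in range (16.4 to 35.1 FPKM and 11.3 to 18.4 FPKM), as did SPRED1 and DUSP5, and SPRY2 and DUSP6. DUSP1, at 50.9 to 70.6 FPKM, was above every other member in every library.

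**Figure D1:**
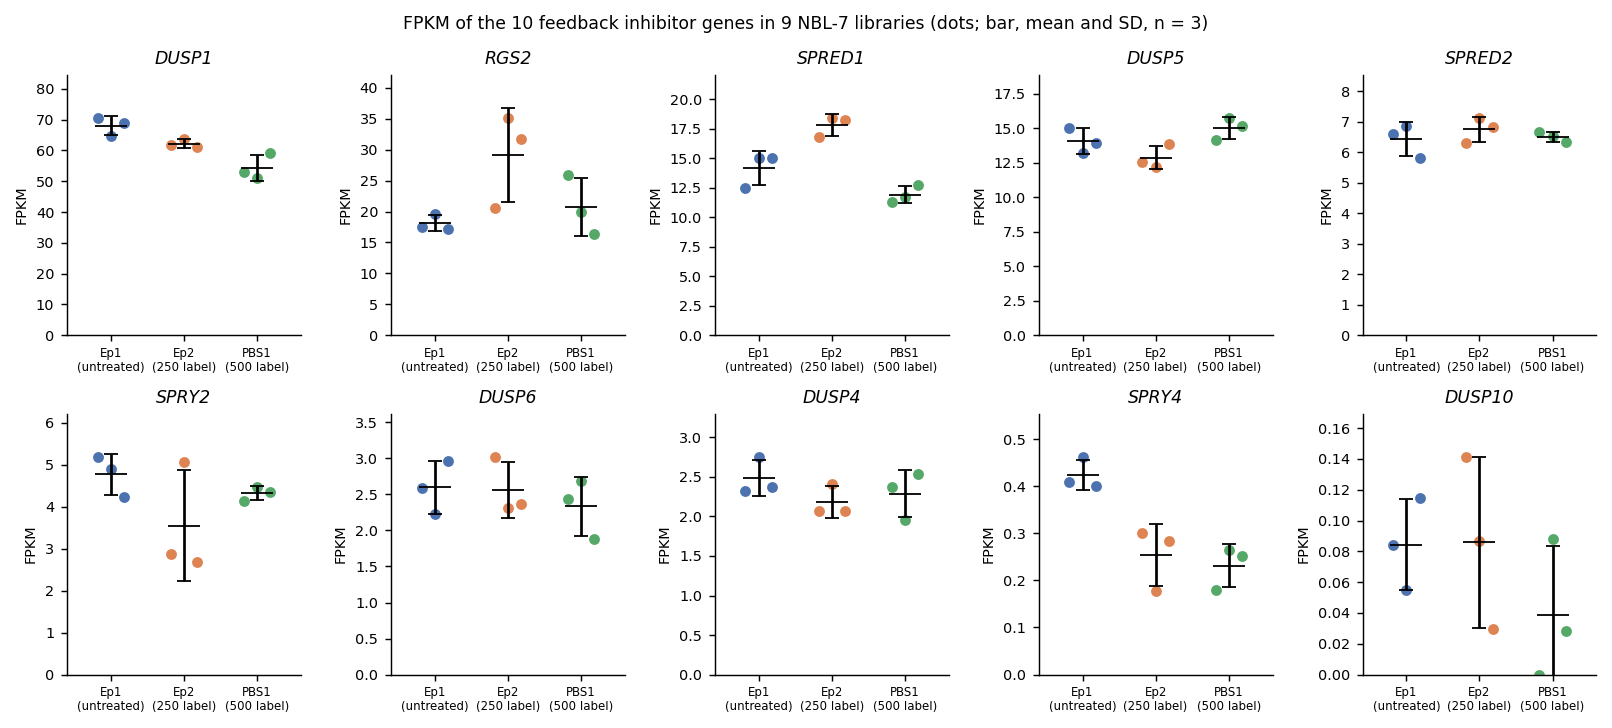
FPKM (y axes, from 0, a separate scale per gene) of the 10 members in each library, ordered by mean level; dots are libraries and bars the mean and SD of the 3 libraries of Ep1 (untreated), Ep2 (250 label) and PBS1 (500 label). SPRED1 separates the 3 Ep2 libraries (16.8 to 18.4 FPKM) from all others, DUSP1 is lowest in the 3 PBS1 libraries, and SPRY2 has 1 Ep2 library at 5.07 FPKM beside 2.87 and 2.69 FPKM; the lower SD bar of DUSP10 in PBS1 runs below the axis.

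Among the phosphatases, DUSP1 encodes a nuclear, rapidly induced enzyme that acts on p38, JNK and ERK. DUSP1 measured 70.6, 64.7 and 68.9 FPKM in the Ep1 libraries, 61.8, 63.8 and 61.1 FPKM in the Ep2 libraries and 53.0, 50.9 and 59.1 FPKM in the PBS1 libraries. Neither pair of neighbouring groups overlapped, Ep1 being highest and PBS1 lowest. The gene passed the limma F-test over the 3 groups (adjusted p = 0.00759). It fell in PBS1 against Ep2 by 0.19 on the log2(FPKM + 1) scale (SE 0.06, limma adjusted p = 0.0279), a call lost without Ep2_2 (adjusted p = 0.0880), Ep2_3 (0.0555), column PBS1 (0.0858) or column PBS2 (0.12). The larger difference of PBS1 minus Ep1, -0.32 (SE 0.06, 95% interval -0.46 to -0.18), had a smaller unadjusted limma p (4.41e-04, against 0.0119 for PBS1 minus Ep2) but did not pass after adjustment over all tested genes (adjusted p = 0.0655). It passed without Ep1_1 (adjusted p = 0.0226) and without column PBS3 (0.0441). Of 12 other processing settings it passed in 5, among them voom on the recovered fragments (0.0199). The adjusted p-values over these 12 ran from 0.00376 to 0.126. For Ep2 minus Ep1 the difference was -0.13 (interval -0.27 to 0.02, adjusted p = 0.164).

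DUSP5, a nuclear phosphatase selective for ERK, measured 15.1, 13.2 and 14.0 FPKM in the Ep1 libraries, 12.6, 12.2 and 13.8 FPKM in the Ep2 libraries and 14.2, 15.8 and 15.1 FPKM in the PBS1 libraries. PBS1 lay above Ep2 in every library, by little, and Ep1 overlapped both. DUSP5 rose in PBS1 against Ep2 by 0.21 (SE 0.07, limma adjusted p = 0.0372), the opposite direction to DUSP1. This call was fragile: it was lost without Ep2_1 (adjusted p = 0.0854), Ep2_2 (0.123), column PBS2 (0.130) or column PBS3 (0.0827). It was also lost in 5 of 12 other processing settings. Among these were voom (0.0561), no filter on low values (0.0556) and the gene length trend removed (0.0703). DUSP5 did not pass the F-test (adjusted p = 0.0921), and neither Ep2 minus Ep1 (-0.12, interval -0.28 to 0.04) nor PBS1 minus Ep1 (0.09, interval -0.07 to 0.25) passed.

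DUSP6 is the cytoplasmic, ERK-selective phosphatase most often used as a marker of ERK output. It measured 2.59, 2.24 and 2.96 FPKM in the Ep1 libraries, 3.02, 2.32 and 2.36 FPKM in the Ep2 libraries and 2.44, 2.69 and 1.88 FPKM in the PBS1 libraries, from 61 to 97 fragments a library. All 3 groups overlapped. The differences were -0.01 (interval -0.29 to 0.27) for Ep2 minus Ep1, -0.11 (interval -0.39 to 0.17) for PBS1 minus Ep1 and -0.10 (interval -0.38 to 0.18) for PBS1 minus Ep2, with limma adjusted p-values of 0.948, 0.631 and 0.543. Changes of DUSP6 from -0.39 to 0.27 on the log2(FPKM + 1) scale therefore stay within the interval of at least 1 comparison. That scale understates changes of a gene at this level.

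DUSP4, a nuclear phosphatase for ERK and JNK, measured 2.33, 2.75 and 2.38 FPKM in the Ep1 libraries, 2.07, 2.42 and 2.07 FPKM in the Ep2 libraries and 2.38, 1.96 and 2.53 FPKM in the PBS1 libraries. The groups overlapped here too, and none of the 3 differences passed. Ep2 minus Ep1 was -0.13 (limma adjusted p = 0.380), and PBS1 differed by -0.09 from Ep1 (adjusted p = 0.659) and by 0.04 from Ep2 (adjusted p = 0.747). DUSP10, which acts on JNK and p38, had 3, 2 and 4 fragments in Ep1, 5, 3 and 1 in Ep2, and 0, 3 and 1 in PBS1. With at most 5 fragments a library, these counts are too few to measure differences of DUSP10. The exact two-sided permutation p was 0.9, 0.3 and 0.3 for the 3 comparisons. With 3 against 3 libraries this p cannot go below 0.1, so the test could not call a difference at any depth.

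The Sprouty gene SPRY2, whose product blocks signalling from growth factor receptors to ERK, measured 5.17, 4.89 and 4.24 FPKM in the Ep1 libraries, 2.87, 5.07 and 2.69 FPKM in the Ep2 libraries and 4.13, 4.46 and 4.36 FPKM in the PBS1 libraries. Ep2_1 and Ep2_3 were the lowest of the 9 libraries, whereas Ep2_2 was the second highest. With all libraries, Ep2 minus Ep1 was -0.38 (SE 0.16, interval -0.74 to -0.02, limma adjusted p = 0.103) and PBS1 minus Ep2 was 0.26 (SE 0.16, adjusted p = 0.195). Both passed without Ep2_2, at -0.61 (adjusted p = 0.0204) and 0.49 (adjusted p = 0.00576), so that 1 library decides whether SPRY2 is called lower in Ep2. PBS1 minus Ep1 was -0.11 (interval -0.47 to 0.24, adjusted p = 0.709).

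SPRY4, a second Sprouty gene induced by ERK, had 26, 30 and 25 fragments in Ep1, 19, 11 and 17 in Ep2, and 11, 16 and 16 in PBS1. In FPKM these were 0.409, 0.461 and 0.401 in Ep1, 0.301, 0.178 and 0.284 in Ep2, and 0.180, 0.264 and 0.251 in PBS1. Each Ep1 library lay above each library of the other groups. The difference in FPKM was -0.17 for Ep2 minus Ep1 and -0.19 for PBS1 minus Ep1, each with an exact two-sided permutation p of 0.1, the smallest that 3 against 3 libraries allow. A voom fit with a lower minimum of 10 fragments in 3 libraries, added after the data were seen, gave log2 differences of -0.75 (SE 0.32, adjusted p = 0.0913) and -0.87 (SE 0.33, adjusted p = 0.126). The limma fit with no filter on low values gave adjusted p-values of 0.0473 and 0.168. These 2 fits differ in both the model and the filter.

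The SPRED proteins sit at the membrane and bring neurofibromin to RAS, which it switches off. SPRED1 measured 12.5, 15.0 and 15.0 FPKM in the Ep1 libraries, 16.8, 18.4 and 18.2 FPKM in the Ep2 libraries and 11.3, 11.7 and 12.7 FPKM in the PBS1 libraries, from 837 to 1379 fragments a library. The Ep2 libraries lay above all 6 others, and the Ep1 library nearest to PBS1 was Ep1_1, which fell within the PBS1 range. SPRED1 had the smallest F-test p-value of the members (adjusted p = 0.00229). It fell in PBS1 against Ep2 by 0.55 (SE 0.08, 95% interval -0.73 to -0.36, limma adjusted p = 7.55e-04), and this call held with each library left out in turn (adjusted p between 1.84e-04 and 0.00464).

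SPRED1 also rose in Ep2 against Ep1, to 17.8 ± 0.901 FPKM in Ep2 (SD, n = 3) against 14.2 ± 1.48 FPKM in Ep1 (n = 3), a log2 difference of 0.31 (SE 0.08, limma adjusted p = 0.0200). That call was lost without Ep1_1 (adjusted p = 0.0556), Ep2_2 (0.0710) or Ep2_3 (0.0730). PBS1 minus Ep1 was -0.23 (interval -0.41 to -0.05, adjusted p = 0.147) and passed without Ep1_1 (-0.32, adjusted p = 0.0206). SPRED2, its paralog, measured 6.61, 6.87 and 5.80 FPKM in the Ep1 libraries, 6.32, 7.12 and 6.82 FPKM in the Ep2 libraries and 6.66, 6.53 and 6.34 FPKM in the PBS1 libraries. SPRED2 varied least of the members, by 1.23-fold between its highest and lowest library, and its 3 intervals all lay between -0.22 and 0.24. The limma adjusted p of SPRED2 was 0.575 for Ep2 minus Ep1, and with PBS1 it was 0.909 against Ep1 and 0.656 against Ep2.

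RGS2 speeds the shut-off of Gq-type G proteins. It measured 17.5, 19.7 and 17.3 FPKM in the Ep1 libraries, 20.6, 35.1 and 31.7 FPKM in the Ep2 libraries and 25.8, 19.9 and 16.4 FPKM in the PBS1 libraries. Ep2_2 and Ep2_3 stood well above the rest, Ep2_1 was just above the highest Ep1 library, and the PBS1 libraries overlapped both other groups. RGS2 rose in Ep2 against Ep1, to 29.1 ± 7.56 FPKM in Ep2 against 18.1 ± 1.34 FPKM in Ep1 (SD, n = 3 each), a log2 difference of 0.62 (SE 0.19, limma adjusted p = 0.0316). This was the largest difference of any tested member over the 3 comparisons. It was not called without Ep1_1 (adjusted p = 0.0909), Ep1_3 (0.0657), Ep2_2 (0.115) or Ep2_3 (0.110), nor with no filter on low values (0.0898). PBS1 minus Ep2 was -0.46 (SE 0.19, adjusted p = 0.0604) and passed without Ep2_1 (-0.68, adjusted p = 0.00515) or without column PBS1 (-0.62, adjusted p = 0.0241). It also passed in 6 of 12 other settings, among them voom (adjusted p = 0.0254), sample weights (0.0127) and a minimum of 5 FPKM (0.0477), with adjusted p-values from 0.00608 to 0.144 over the 12. PBS1 minus Ep1 was 0.16 (interval -0.25 to 0.57, adjusted p = 0.628).

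The precision of these values differed between members. For DUSP1, whose libraries held 1315 to 1910 fragments, counting alone gives a coefficient of variation of 2.33% to 2.64% a library, and the libraries of a group differed by 2.21% to 7.85%. For DUSP4 the spread between libraries, 9.13% to 13.0%, was close to the counting error of 9.18% to 9.95%. SPRY2 in Ep2 spread by 37.4% where counting gives 10.1%, and RGS2 spread by 26.0% in Ep2 and 22.9% in PBS1 where counting gives 4.43% and 5.24%. Counting errors cover sampling of fragments only, since fragments copied by PCR are not independent.

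**Figure D2:**
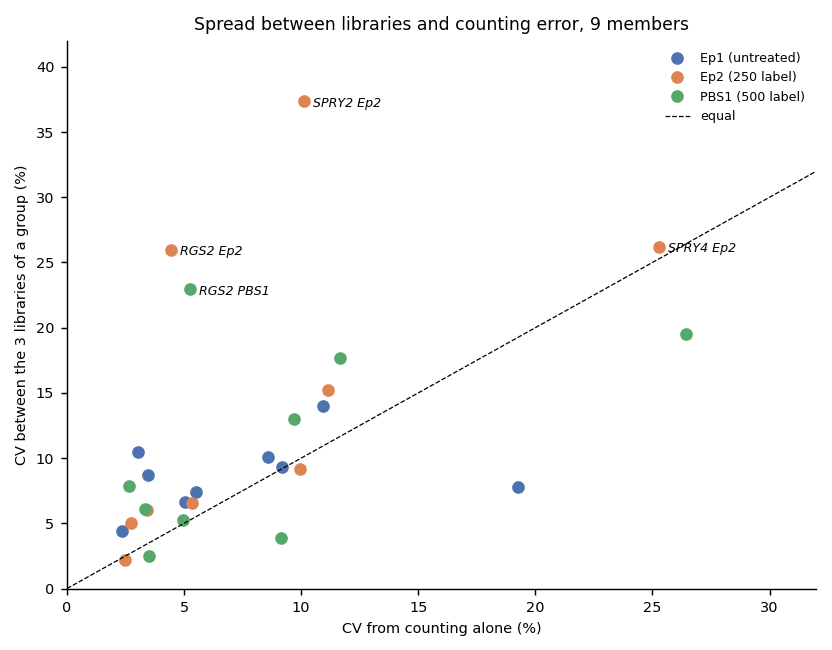
Coefficient of variation between the 3 libraries of a group (y axis, %) against that expected from counting fragments alone (x axis, %), for 9 members (DUSP10 is left out for its few fragments) in Ep1 (untreated), Ep2 (250 label) and PBS1 (500 label); the dashed line marks equal values. SPRY2 in Ep2 (37.4% against 10.1%) and RGS2 in Ep2 (26.0% against 4.43%) and PBS1 (22.9% against 5.24%) lie farthest above the line.

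The first comparison, of the group labelled 250 µg/mL with the group labelled untreated, showed RGS2 and SPRED1 higher in Ep2, at 1.54-fold and 1.24-fold on the log2(FPKM + 1) scale. None of the phosphatase members was called: the 4 tested ones had differences between -0.13 and -0.01, and 0 of 4 had an unadjusted limma p under 0.05 or were called by voom. Of all 11840 tested genes, 4893 had such a p and voom called 3672. In all, 2 of the 8 tested members rose and 0 fell, beside 27.4% of all tested genes called in either direction, 13.4% higher and 14.0% lower. A share of 2 in 8 is near that background. The groups did not overlap for 3 of the 8 tested members, DUSP1, SPRED1 and RGS2, where 42.8% of all tested genes did not overlap. The median difference of the tested members was -0.07, and that of all tested genes -0.0035. The count of members called was 0 without Ep1_1 or without Ep2_3, and 1 without Ep1_3 or Ep2_2; without Ep2_2 the 1 called was SPRY2, lower in Ep2.

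The second comparison, of the group labelled 500 µg/mL and titled PBS1 with the untreated label, called 0 of the 8 tested members by limma. DUSP1 and SPRED1 came nearest, both lower in PBS1. An unadjusted limma p under 0.05 was found for 2 of 8 members, beside 2648 of all 11840 tested genes. Voom called 1 member, DUSP1, beside 547 of all 11840 tested genes. The background share of limma calls was 0.144%, with 0.0760% of genes higher and 0.0676% lower, so a count of 0 among 8 is no result about the members. DUSP1 was the 1 tested member whose groups did not overlap, beside 23.7% of all tested genes. The median difference of the members was -0.10, against 0.0027 for all tested genes. Without Ep1_1, 2 members were called, DUSP1 and SPRED1, both lower in PBS1, and without column PBS3 1 was called, DUSP1.

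The third comparison set the group labelled 500 µg/mL (PBS1) against that labelled 250 µg/mL (Ep2). SPRED1 and DUSP1 were lower in PBS1, at 1.46-fold and 1.14-fold, and DUSP5 was 1.15-fold higher. These are 1 higher and 2 lower of 8 tested members, beside 49.6% of all tested genes called, 25.4% higher and 24.2% lower, so the members' share was not above the background. The groups did not overlap for these 3 members, where 60.3% of all tested genes did not overlap. The median absolute difference of the tested members was 0.20 log2 units, against 0.24 for all tested genes. Voom called 3 members too, DUSP1, SPRED1 and RGS2, all lower in PBS1, beside 6009 of all 11840 tested genes. The limma count was 1 without column PBS2, with SPRED1 the gene called. All 3 comparisons share groups of libraries, so their values for a member are not independent of each other. Over the 3 groups, DUSP1, SPRED1 and RGS2 passed the limma F-test (RGS2 at an adjusted p of 0.0407), 3 of 8 beside 45.4% of all tested genes.

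**Figure D3:**
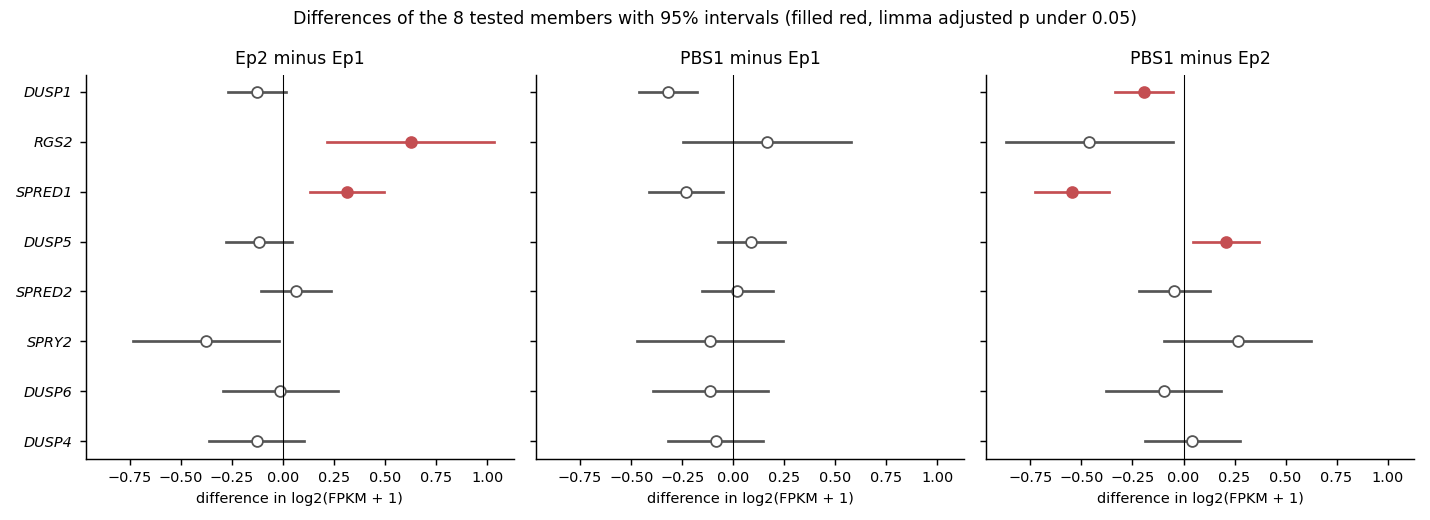
Difference in log2(FPKM + 1) (x axes) of the 8 tested members for Ep2 minus Ep1 (left), PBS1 minus Ep1 (middle) and PBS1 minus Ep2 (right); points are limma estimates, lines 95% intervals, and filled red points have an adjusted p under 0.05 over all tested genes. RGS2 and SPRED1 are filled for Ep2 minus Ep1, no member for PBS1 minus Ep1, and DUSP1, SPRED1 and DUSP5 for PBS1 minus Ep2; the intervals of DUSP6, SPRED2 and DUSP4 include 0 in all 3 panels.

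Close relatives of the members were measured as well. Of the 5 other classical MAP kinase phosphatases, DUSP2 and DUSP9 had at most 1 and 0 fragments in a library, and DUSP7, DUSP8 and DUSP16 were tested. DUSP7, an ERK phosphatase of the cytoplasm, was more abundant on average than every member except DUSP1, at 36.1 ± 0.484 FPKM in Ep1, 34.7 ± 0.0256 FPKM in Ep2 and 36.3 ± 1.19 FPKM in PBS1 (SD, n = 3 each), and it was not called in any comparison (limma adjusted p = 0.423 for Ep2 minus Ep1, and for PBS1 0.955 against Ep1 and 0.320 against Ep2). DUSP8, which acts on JNK and p38, fell in PBS1 against Ep2, with 18.7 ± 1.54 FPKM in PBS1 and 25.5 ± 3.31 FPKM in Ep2 (difference -0.42, SE 0.11, limma adjusted p = 0.0117). It was the 1 call of the 3 tested genes, in a comparison where 49.6% of all tested genes were called. Of 3 other Sprouty and SPRED genes, SPRY1 and SPRED3 stayed under the filter, at up to 0.792 and 0.124 FPKM. SPRY3 was not called by limma (-0.28 for Ep2 minus Ep1, adjusted p = 0.102, and -0.26 for PBS1 minus Ep1, adjusted p = 0.221), and voom called it for Ep2 minus Ep1.

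A list of 14 other inhibitors of receptor tyrosine kinase and RAS signalling was tested in full. For Ep2 minus Ep1, 2 rose, 3 fell and 9 were not called, a share of 35.7% near the 27.4% of all tested genes. PEBP1, which binds RAF and keeps it from MEK, fell in Ep2, with 170 ± 14.1 FPKM in Ep2 and 216 ± 14.9 FPKM in Ep1 (-0.35, SE 0.07, limma adjusted p = 0.00745). CBL, a ubiquitin ligase for growth factor receptors, fell by 0.27, a call lost without Ep2_3 (adjusted p = 0.0704). IL17RD, a membrane inhibitor of FGF signalling, fell by 0.29 (limma adjusted p = 0.0494). This call was lost with any 1 of the 9 libraries left out (largest adjusted p 0.173) and in 7 of 12 other processing settings. The 2 that rose, RASA2 (0.27) and PAQR3 (0.26), are named after their values were seen. Their calls were lost without any 1 of 4 and of 7 libraries (largest adjusted p 0.0929 and 0.0855). They were also lost in 4 of 13 and 2 of 13 other processing settings. For PBS1 minus Ep1, 0 of 14 were called by limma, beside 0.144% of all tested genes. Of the 14, 7 had an unadjusted limma p under 0.05 and voom called 4. Of all 11840 tested genes, 2648 had such a p and voom called 547. PEBP1, the most abundant of the 14, measured 251 ± 3.46 FPKM in PBS1 against the 216 ± 14.9 FPKM of Ep1 (0.22, adjusted p = 0.121).

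For PBS1 minus Ep2, 2 of the 14 rose and 6 fell, a share of 57.1% near the 49.6% of all tested genes. PEBP1 rose by 0.56 (SE 0.07, limma adjusted p = 3.92e-04) and the adaptor gene DOK1, which recruits a RAS inhibitor, by 0.49 (SE 0.11), whereas RASA2, a protein that switches RAS off, fell by 0.54 (SE 0.08). NF1, chosen here after its values were seen because neurofibromin is the partner of SPRED1, measured 13.8 ± 0.646 FPKM in PBS1 and 18.1 ± 0.0783 FPKM in Ep2, a difference of -0.37 (SE 0.10, adjusted p = 0.00930). The other genes called lower, CBLB, RASA1, RASAL2 and PAQR3, had differences between -0.30 and -0.19, and each of these calls was lost without at least 1 library (largest adjusted p 0.145). The RASAL2 call was also lost in 4 of 12 other processing settings. The calls of PEBP1, DOK1, RASA2 and NF1 in this comparison held with each library left out. NF1 did not pass for Ep2 minus Ep1 (0.08, adjusted p = 0.570) or PBS1 minus Ep1 (-0.29, adjusted p = 0.129). The list's median was 0.09, against 0.0024 for all tested genes.

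Other genes that ERK signalling induces were compared with the members. Of 14 listed, 13 were tested; ETV1 reached only 0.738 FPKM. For Ep2 minus Ep1, 0 rose and 3 fell, 23.1% beside 27.4% of all tested genes, with a list median of -0.19 against -0.0035 for all tested genes. JUNB, a subunit of the AP-1 transcription factor, fell by 0.45 (79.9 ± 3.19 FPKM in Ep2, 111 ± 16.4 FPKM in Ep1, limma adjusted p = 0.00700). EPHA2, an ephrin receptor, fell by 0.35 (34.5 ± 0.670 FPKM in Ep2, 44.3 ± 1.78 FPKM in Ep1), and FOSL1, another AP-1 gene, by 0.30. The FOSL1 call was lost with each single library left out except Ep1_3 (largest adjusted p 0.152). It was also lost in 4 of 13 other processing settings. For PBS1 minus Ep1, 0 of 13 were called by limma, beside 0.144% of all tested genes. Of the 13, 3 had an unadjusted limma p under 0.05 and voom called 1. Of all 11840 tested genes, 2648 had such a p and voom called 547. JUNB differed by 0.08 (limma adjusted p = 0.622). For PBS1 minus Ep2, JUNB (0.53, SE 0.09) and FOS (0.58, SE 0.17) rose and PHLDA1 (-0.28, SE 0.10) fell, 23.1% beside 49.6% of all tested genes, with a list median of 0.15 against 0.0024. The FOS call was lost without Ep2_2, column PBS1 or column PBS2 (largest adjusted p 0.0625), and that of PHLDA1 without any 1 of 7 libraries (largest adjusted p 0.134). The PHLDA1 call was also lost in 3 of 11 other processing settings.

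Of 13 genes of the cascade from RAS to the MAP kinases, 2 rose and 2 fell for Ep2 minus Ep1, 30.8% beside 27.4% of all tested genes. MAPK3, which encodes ERK1, fell by 0.48 (SE 0.13, limma adjusted p = 0.0193) and MAP2K1, which encodes MEK1, by 0.27 (SE 0.07). The call of MAPK3 was lost without Ep1_1, Ep2_2 or Ep2_3 (largest adjusted p 0.0662) and with no filter on low values, and that of MAP2K1 without Ep2_3 (adjusted p = 0.0686). For PBS1 minus Ep1, 0 of 13 were called by limma, beside 0.144% of all tested genes. Of the 13, 3 had an unadjusted limma p under 0.05 and voom called 0. Of all 11840 tested genes, 2648 had such a p and voom called 547. MAP2K2, which encodes MEK2 and was the most abundant of the 13, was at 69.1 ± 3.51 FPKM in PBS1, against 72.7 ± 3.11 FPKM in Ep1 (-0.07, adjusted p = 0.554). For PBS1 minus Ep2, 3 rose and 4 fell, beside the 49.6% of all tested genes called. HRAS, a RAS gene, rose by 0.57 (28.7 ± 1.86 FPKM in PBS1, 18.9 ± 0.177 FPKM in Ep2, limma adjusted p = 0.00328). MAPK3 rose by 0.44, a call lost without column PBS2 (adjusted p = 0.0542). MAP2K1 rose by 0.40, and the JNK genes MAPK8 and MAPK9, named after their values were seen, fell by 0.37 and 0.25. The call of MAPK9 was lost without any 1 of 5 libraries (largest adjusted p 0.0965) and in 2 of 12 other processing settings.

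**Figure D4:**
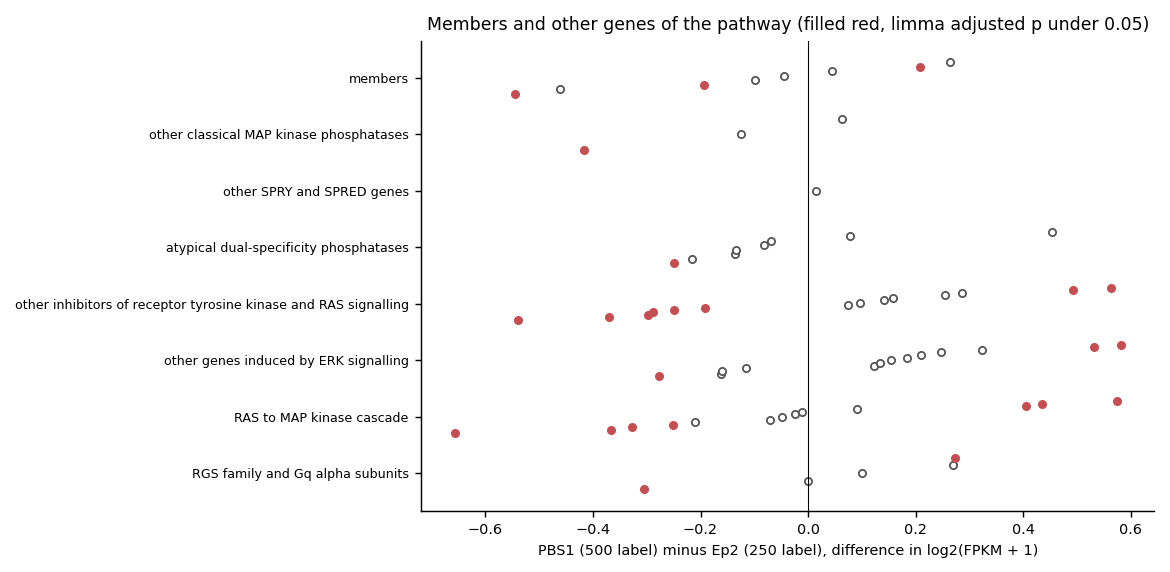
Difference in log2(FPKM + 1) for PBS1 (500 label) minus Ep2 (250 label) of each tested gene, by list (rows); filled red points have a limma adjusted p under 0.05 over all tested genes, and open points do not. Called genes lie on both sides of 0 for the members (SPRED1 at -0.55 and DUSP5 at 0.21), for the other RAS inhibitors and for the RAS to MAP kinase cascade (MAPK8 at -0.37 and HRAS at 0.57).

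Among genes with a plain symbol, MON1B, CWF19L2, TRMT10B, HYLS1 and EGFR had the pattern most like that of DUSP6 over the 9 libraries. Their Pearson correlations of log2(FPKM + 1) were 0.917, 0.911, 0.899, 0.891 and 0.890. They were picked from 11832 genes compared over only 9 libraries, which share their groups, so the values are a description. Genes with a placeholder name or lower-case letters in the symbol were passed over, and some of those may correlate higher. EGFR, a receptor upstream of ERK, ranged from 3.85 to 5.41 FPKM. DUSP6 itself was not called in any comparison. Its libraries differed within groups by 14.0% to 17.7%, where counting alone gives 10.9% to 11.7%. Much of the pattern matched here may therefore be counting error.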

How the data were processed

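Values are FPKM in 1 table that the authors deposited, fragments scaled by gene length and library total, per the file headers, with gene lengths; Bowtie 0.12.2 and the build mm8 are named per the submitters' processing notes. mm8 is a mouse build while the table lists ferret scaffolds, so no coordinates are given. The counting tool, annotation and strand setting are not stated in the sources used, so overlapping genes or near-identical copies are uncertain. Columns PBS1, PBS2 and PBS3 match the PBS1 group by their stem only.

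The test was limma 3.58.1 (R 4.3.3) applied to log2(FPKM + 1) values, a scale that understates changes of low genes, with an intensity trend, all 9 libraries in 1 fit and no block. Genes with at least 1 FPKM in 3 libraries entered, and Benjamini-Hochberg adjustment ran over all of them, with a threshold of 0.05. The fit was also run on simulated fragments, with the same added spread for every gene and changes only in Ep2. That setting is simpler than these data, so the run says nothing on the calls above. FPKM times length gave whole fragments for 100% of values above 0, within 0.02. These fragments gave the library totals and the voom fits. Members and lists were chosen with earlier results of these data known. Named genes were the members and the 5 genes with a plain symbol most like DUSP6. From each other list, up to 3 called genes per comparison were named, or the most abundant where none was called. Other genes are said to be named after their values were seen or stand only to complete a count. Alternatives were another pseudocount, filters, scalings, weights, libraries, the replicate number as a block, and voom. Some genes that this rule names are counted but not reported here.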

Additional observations from a re-analysis of the deposited data

How the results depend on the processing

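Of the alternatives, another pseudocount (0.1), equal library medians, no intensity trend and only the 6 libraries compared changed no call or direction of the 8 tested members. For PBS1 minus Ep1, 0 of 8 members were called, but 1 of 5 with a minimum of 5 FPKM and 1 of 8 with voom. Voom at a minimum of 10 fragments (added after the data were seen) called 1 of 9. Sample weights called 2 of 8, as did leaving out Ep1_1 and Ep2_1. The cause was not tested. For PBS1 minus Ep2, where 3 of 8 members were called, the count was 4 of 5 with a minimum of 5 FPKM. It was 4 of 8 with sample weights and 2 of 10 with no filter. The 17 genes called for PBS1 minus Ep1 became 0 with no filter, 79 at 5 FPKM, 38 with the gene length trend removed, 11 without the intensity trend, 3593 with sample weights, 547 and 552 with the voom fits and 2284 without Ep1_1 and Ep2_1. With 1 library left out, members called ranged from 0 to 2 for Ep2 minus Ep1, 0 to 2 for PBS1 minus Ep1 and 1 to 3 for PBS1 minus Ep2, and genes called from 1256 to 3421, 0 to 1875 (9 without column PBS2, 47 without column PBS3) and 4495 to 6246. Uncalled differences near 0 changed sign. For Ep2 minus Ep1, DUSP6 was 0.033 with quantile normalization and 0.036 with sample weights, and -0.10 to 0.058 with 1 library left out. With sample weights, PBS1 minus Ep1 was 0.028 for DUSP6 and -0.026 for SPRED2, and SPRED2 ranged from -0.044 to 0.062 with 1 library left out. For PBS1 minus Ep2, SPRED2 was 0.031 with the length trend removed, and leaving out 1 library gave -0.0098 to 0.12 for DUSP4 and -0.17 to 0.0041 for DUSP6.

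The replicate block over the 6 Ep libraries called 2 members and 2917 genes for Ep2 minus Ep1. The same 6 libraries without the block gave 2 members and 2317 genes. With the block the SE was 0.123 for RGS2 and 0.068 for SPRED1, against 0.167 and 0.088 without it. Same-numbered Ep1 and Ep2 libraries deviated together by small positive correlations of 0.152, 0.0720 and 0.0647. Ep1_2 and Ep2_3 correlated best with each other (0.0733), the other libraries with their own number. Whether the numbers mark pairs was not tested, and the main fit used no block. No paired analysis was possible for PBS1 because its columns cannot be matched to single titles. Depth limits SPRY4 and DUSP10, and sets much of the error of DUSP4 and DUSP6.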

Other observations

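Of 11 atypical dual-specificity phosphatases, relatives of the DUSP members without their MAP kinase docking region, 10 were in the table and 8 were tested; DUSP15 had 0 fragments and DUSP26 at most 4. For Ep2 minus Ep1 and for PBS1 minus Ep1, 0 of 8 were called by limma or voom, with 1 unadjusted limma p under 0.05 in each. Limma called 27.4% and 0.144% of all tested genes in these 2 comparisons. Of all 11840 tested genes, 4893 and 2648 had an unadjusted p under 0.05, and voom called 3672 and 547. DUSP11, which acts on RNA, was not called in either comparison (31.4 ± 0.921 FPKM in Ep2, 28.6 ± 2.80 FPKM in Ep1, SD, n = 3 each). It fell in PBS1 against Ep2 by 0.25 (SE 0.07, limma adjusted p = 0.0158), with 26.3 ± 1.16 FPKM in PBS1, and that call was lost without column PBS1 or column PBS2 (largest adjusted p 0.0587). DUSP11 was the 1 call of 8 for PBS1 minus Ep2, 12.5% beside 49.6% of all tested genes.

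RGS2 was the most abundant RGS gene of those listed, ahead of RGS10, which averaged 5.09 FPKM in Ep1, 5.52 FPKM in Ep2 and 5.50 FPKM in PBS1. Of the 11 others, RGS4, RGS5 and RGS16 had 0 fragments in every library, and RGS3, RGS10 and RGS19 were tested, together with the Gq subunit genes GNAQ and GNA11. For Ep2 minus Ep1 and PBS1 minus Ep1, 0 of these 5 were called by limma, with 1 and 0 unadjusted p-values under 0.05, and voom called 2 and 0. Limma called 27.4% and 0.144% of all tested genes in these 2 comparisons. Of all 11840 tested genes, 4893 and 2648 had an unadjusted p under 0.05, and voom called 3672 and 547. GNA11, the most abundant of these 5 genes, differed by -0.09 and 0.18 (limma adjusted p = 0.450 and 0.224). For PBS1 minus Ep2, GNAQ fell by 0.30 (8.25 ± 0.324 FPKM in PBS1, 10.4 ± 0.0359 FPKM in Ep2, SD, n = 3 each, limma adjusted p = 0.00966). GNA11 rose by 0.27 (32.3 ± 1.29 FPKM in PBS1, 26.6 ± 2.57 FPKM in Ep2, adjusted p = 0.0199), a call lost without Ep2_3, column PBS1 or column PBS2 (largest adjusted p 0.0849) and with the gene length trend removed. These are 1 higher and 1 lower of 5 tested genes, 40% beside 49.6% of all tested genes.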
